A study of Mus musculus with 8 samples.

Results

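The sites described here are the 2709 autosomal H3K9ac peaks found in the bone marrow (BM) library labelled *GFI1-36S* curcumin and in none of the other 5 libraries of the study. They were chosen by position alone: a peak of this library on chromosomes 1 to 19 was kept when it overlapped no peak of any other list by even 1 bp. They made up 13.6% of its 19931 autosomal peaks (Wilson 95% interval 13.1% to 14.1%, counting error only), out of 216373 autosomal peaks in the 6 lists together. All mice carried the *NUP98-HOXD13* transgene, a leukaemia-associated fusion gene, on the C57BL/6 strain, and whole BM cells were used; ages are not given in the sources used here. In addition, mice expressed *GFI1-36S* (the common human form of the transcriptional repressor GFI1), *GFI1-36N* (a variant form) or *GFI1-KD* (a lowered level), and received curcumin at 20 mg/kg weekly or the DMSO vehicle, with 1 library of each genotype and treatment. BM was taken when mice showed overt leukaemia or poor health, so that the libraries are of diseased marrow, and an input and an IgG sample were not used here. For *GFI1-36S*, the treatment in each list's own name is the reverse of that in its sample label, and both names give a heterozygous mouse. The *GFI1-36N* lists are named as from a heterozygote (vehicle) and a homozygote (curcumin). The labels were followed, and every statement on treatment rests on them. With 1 library per group, differences between libraries have no replicate check, and treatment, genotype, mouse and leukaemia cannot be told apart.

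H3K9ac is an acetyl mark on histone H3 found at active promoters and enhancers. T cells read antigen through a receptor whose chains are joined from V, D and J gene segments, and chromatin over these segments becomes acetylated in developing T cells when they recombine. T-cell commitment is set by transcription factors such as TCF1 (*Tcf7*), GATA3 and BCL11B, while neutrophils and red cell precursors are abundant in normal marrow.

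These 6 sites were picked for strength and from T-cell genes, and do not stand for the whole set. Of the sites given to a gene, 8.96% fell to the T-lineage genes described below. The 6 include the strongest sites of all, at *Traj25* and *Gpr25*, and the strongest at a T-cell receptor gamma gene. The others are the strongest given to the T-cell genes *Bcl11b*, *Cd2* and *Tcf7*. The 300 bp around each summit are printed 5′ to 3′ on the plus strand of mm10, from the RefSeq sequence of GRCm38.p6, and capitals mark matches on either strand to short RUNX (TGTGGT), ETS (AGGAAGT), E-box (CAGCTG) or TCF/LEF (CTTTGAT) patterns.
*Traj25*, chr14:54194944-54195243: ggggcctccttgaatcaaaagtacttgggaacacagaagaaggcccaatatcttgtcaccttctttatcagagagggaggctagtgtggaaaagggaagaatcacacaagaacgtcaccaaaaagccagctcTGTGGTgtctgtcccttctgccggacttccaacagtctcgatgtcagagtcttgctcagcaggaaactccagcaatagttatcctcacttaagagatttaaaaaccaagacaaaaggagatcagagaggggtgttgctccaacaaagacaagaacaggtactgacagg
*Gpr25*, chr1:136259939-136260238: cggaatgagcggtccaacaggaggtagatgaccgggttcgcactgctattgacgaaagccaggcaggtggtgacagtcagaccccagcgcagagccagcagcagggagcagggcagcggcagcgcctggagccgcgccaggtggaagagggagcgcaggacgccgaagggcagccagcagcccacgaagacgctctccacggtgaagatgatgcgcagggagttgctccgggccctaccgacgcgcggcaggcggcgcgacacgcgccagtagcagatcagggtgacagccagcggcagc
*Tcrg-C2*, chr13:19308403-19308702: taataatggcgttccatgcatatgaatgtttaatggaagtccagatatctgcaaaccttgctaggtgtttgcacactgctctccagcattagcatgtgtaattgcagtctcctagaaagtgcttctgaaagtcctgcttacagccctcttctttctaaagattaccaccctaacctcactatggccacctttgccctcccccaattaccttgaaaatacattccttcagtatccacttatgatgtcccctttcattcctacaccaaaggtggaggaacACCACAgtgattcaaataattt
*Bcl11b*, chr12:107998103-107998402: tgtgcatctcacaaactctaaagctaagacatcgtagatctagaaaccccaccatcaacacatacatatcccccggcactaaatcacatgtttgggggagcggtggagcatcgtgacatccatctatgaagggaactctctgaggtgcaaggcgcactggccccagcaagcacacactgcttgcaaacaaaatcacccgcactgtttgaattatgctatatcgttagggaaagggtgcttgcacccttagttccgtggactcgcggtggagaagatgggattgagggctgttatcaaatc
*Cd2*, chr3:101286044-101286343: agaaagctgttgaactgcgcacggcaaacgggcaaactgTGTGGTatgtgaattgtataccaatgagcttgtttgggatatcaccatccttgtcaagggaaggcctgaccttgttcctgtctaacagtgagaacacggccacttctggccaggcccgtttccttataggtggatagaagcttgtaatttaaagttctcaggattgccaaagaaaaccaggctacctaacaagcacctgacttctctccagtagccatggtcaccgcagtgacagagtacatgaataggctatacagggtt
*Tcf7*, chr11:52284025-52284324: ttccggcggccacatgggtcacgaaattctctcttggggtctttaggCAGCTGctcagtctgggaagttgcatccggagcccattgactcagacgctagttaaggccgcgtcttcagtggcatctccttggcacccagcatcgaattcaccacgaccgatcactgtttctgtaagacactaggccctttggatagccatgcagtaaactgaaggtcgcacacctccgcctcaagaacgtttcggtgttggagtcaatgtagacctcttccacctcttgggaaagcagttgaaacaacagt
The *Traj25*, *Tcrg-C2* and *Cd2* windows each hold 1 RUNX match and the *Tcf7* window 1 E-box match. In the *Gpr25* and *Bcl11b* windows no letters match any of these patterns, and the *Gpr25* window, which lies inside the gene, has a GC content of 67.7%.

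The sites were weaker and narrower than the peaks that the library shared with others. Fold enrichment, the fragments at the summit over the local background as the peak caller gives it, had a median of 3.74 (range 1.92 to 22.2, middle 50% from 3.30 to 4.27), and the 17222 shared peaks had a median of 7.12. The whole number of fragments at each summit could be recovered from the deposited values, and it was 22 at the median site (range 15 to 156) and 42 at the median shared peak, over a genome background of 4.56 fragments. The median width was 302 bp for the sites and 679 bp for the shared peaks. At a fold enrichment of 10 or more there were 22 sites (0.812%) and 6289 shared peaks (36.5%). The rule used the lists of peaks themselves, so these values are given as a description.

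**Figure D1:**
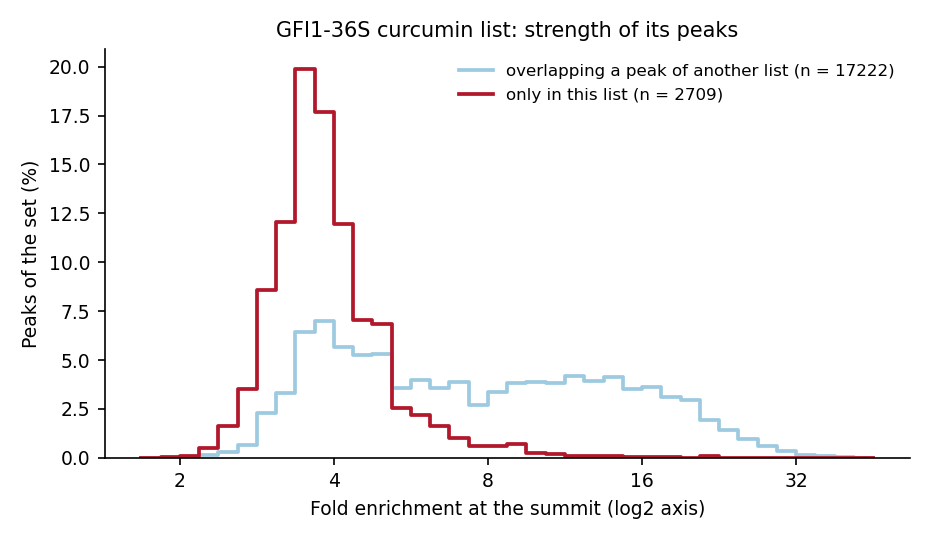
Fold enrichment of the peaks of the library labelled *GFI1-36S* curcumin, on a log2 axis, as the percent of the 2709 sites found in no other list and of the 17222 peaks overlapping another list. The sites crowd around their median of 3.74 with a tail up to 22.2, and the shared peaks spread widely around 7.12.

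The position of the sites relative to other lists was graded. Of the 2709 sites, 108 lay within 100 bp of a peak of another list, 664 (24.5%) within 1 kb, and 331 farther than 50 kb, with a median gap of 4799 bp. Just inside the rule, sites at *Zranb3* and *Nfatc2* touched a peak of another list without overlap (fold enrichment 2.82 and 3.30) and a site at *Scml4* was 1 bp away (3.92). Just outside it, peaks at *Sec24c*, *Chchd3* and *Trhr2* overlapped by 5, 7 and 7 bp (3.67, 3.14 and 3.92). At the other end, 14433 peaks (72.4%) of the list had an overlapping peak in all 5 other lists.

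Each other list had such sites of its own. They numbered 3668 of 40537 peaks (9.05%) for *GFI1-36S* vehicle, 3636 of 38869 (9.35%) for *GFI1-36N* vehicle and 9628 of 48392 (19.9%) for *GFI1-36N* curcumin. For *GFI1-KD* vehicle there were 5860 of 38559 (15.2%), and for *GFI1-KD* curcumin 960 of 30085 (3.19%). The share of 13.6% in the library labelled *GFI1-36S* curcumin thus lay inside the range of the others, although its list was the shortest. With only the 19931 top peaks of every list kept, its sites numbered 4064 (20.4%), and the other lists kept between 864 (4.34%) and 1960 (9.83%). That number is the full length of its own list, so only the other lists lost their lower-ranked peaks. The cut thus favours a higher share for its list, and the values are a description only. Fold enrichment of 10 or more was reached by 22 of its sites, and by 4, 0, 13, 11 and 3 sites of the other lists in the order just given.

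Most sites lay away from promoters, taken as the window within 1 kb of a TSS, upstream or downstream, of protein-coding and antigen receptor genes. At promoters there were 390 sites (14.4%, Wilson 95% interval 13.1% to 15.8%), in exons 146 (5.39%), in introns 1436 (53.0%) and between genes 737 (27.2%). Of the shared peaks of the same list, 69.7% were at promoters. The sites found only in another list had promoter shares from 10.3% to 13.5%, the highest in *GFI1-KD* vehicle. The interval covers counting error only and does not measure differences between libraries. The median distance from the summit to the nearest TSS was 10161 bp for the sites and 307 bp for shared peaks. Sites at promoters were only slightly stronger (median fold enrichment 3.92) than those in introns (3.67) or between genes (3.74), but 14 of the 22 sites with a fold enrichment of 10 or more were at promoters.

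**Figure D2:**
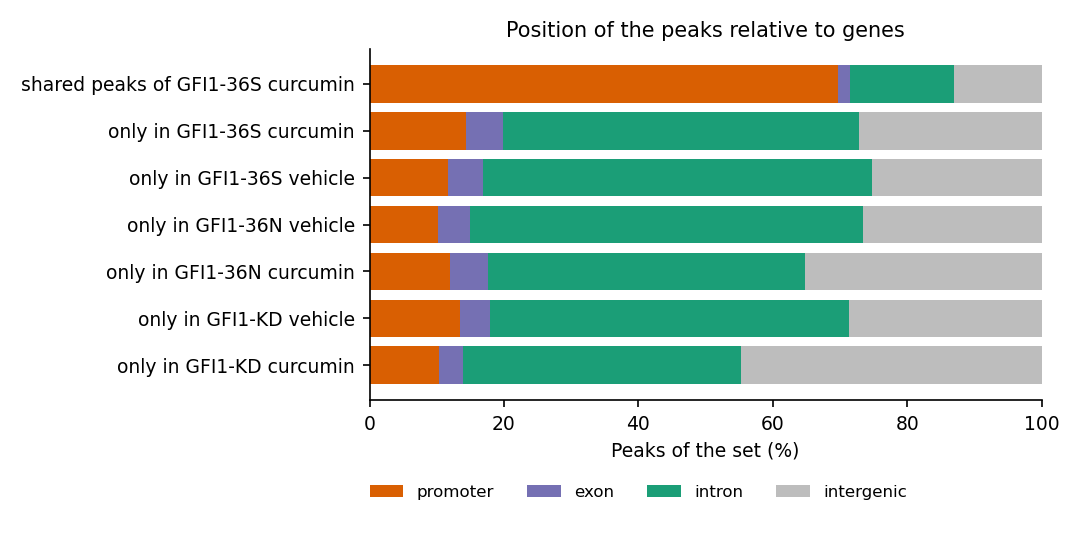
Percent of peaks at promoters, in exons, in introns and between genes, for the shared peaks of the library labelled *GFI1-36S* curcumin and for the sites found only in each of the 6 lists. Introns held 53.0% of its sites, and promoters 14.4% against 69.7% of its shared peaks.

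When each site was given to the gene with the nearest TSS within 100 kb, 2512 sites fell to 1274 genes, 5.99% of the 21270 genes tested. Of these genes, 792 had 1 site. At the other extreme, 95 genes (0.447%) had 5 or more and together held 731 sites, 29.1% of those given to a gene. A promoter peak was present in all 6 lists at 808 of the 1274 genes (63.4%), and in this list alone at 124. Of the 323 genes (1.52%) with a site at the promoter itself, 145 had no promoter peak in any other list, 123 had one in all 5 others, and 55 in 1 to 4 of them. For 161 genes no other list had any peak nearest to them, and 25 of these had 3 sites or more, led by *Gpr25* (10), *Camk4* (9), *Elfn2* (8), *Olfr524* (8) and *Syt13* (7).

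The strongest site of all covered the J segments of the T-cell receptor alpha chain. It was 9084 bp wide (chr14:54193256-54202339, mm10), overlapped the 10 segments *Traj17* to *Traj26*, had its summit 279 bp downstream of the start of *Traj25*, and reached a fold enrichment of 22.2 with 156 fragments. The promoter windows of 12 J segments shared this one site. No peak of another list came closer than 22338 bp. The next was a 3008 bp site over *Gpr25* (chr1:136259303-136262310), a G protein-coupled receptor of T cells, with a fold enrichment of 21.7 and 122 fragments, 24607 bp from any other list's peak. Then came sites in an intron of *Hlcs* (holocarboxylase synthetase, 18.0) and at the promoter of *Xkr6* (an XK-family membrane protein, 17.3). The fifth, at 15.8, lay between genes and 56.1 kb from the TSS of *Dtl*, its nearest.

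The rest of the 20 strongest sites, with fold enrichments from 14.6 down to 10.2, were a mixed group. At promoters they included *Cnnm1* (14.6), *Trnp1* (14.4), *Wnt8b* (a Wnt ligand, 11.9), *Llgl1* (a cell polarity gene, 11.04), *Sp9* (a transcription factor, 11.04), *Ptpn14* (a tyrosine phosphatase, 10.6), *Camk4* (a calcium-dependent kinase of T cells and neurons, 10.2) and *Bmp7* (a growth factor, 10.2). A site 1002 bp upstream of *Tcrg-C2*, a constant gene of the T-cell receptor gamma chain, reached 12.1 but was only 167 bp from a peak of another list. In introns were sites of *Cyb5a* (13.2), *Jazf1* (13.0), *Camk2b* (12.6), *Zbtb38* (10.5) and *Atp6v0a2* (10.2). A site upstream of *Ptprh* (11.04) had another list's peak 56 bp away. Several of these genes are better known from the nervous system or the embryo than from blood cells.

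The antigen receptor loci were examined with 10 kb on each side. In the *Tcra*/*Tcrd* locus this library had 50 peaks, and 42 of them were sites found in no other list. The other libraries had 9 (*GFI1-36S* vehicle), 10 (*GFI1-36N* vehicle), 8 (*GFI1-36N* curcumin), 5 (*GFI1-KD* vehicle) and 4 (*GFI1-KD* curcumin) peaks there, so that none had more than 10. Of the 42 sites, 11 were nearest to a V segment between *Trav13n-4* and *Trav13-2*, 22 to a J segment and 8 to the constant gene *Trac*, and 1 was nearest to *B230359F08Rik*. The V-segment sites had fold enrichments from 2.73 to 8.90, the strongest over *Trav13-2* (chr14:53634302-53635395, 49 fragments). The J-segment sites ran from *Traj55* to *Traj1*, with none between those at *Traj39* and *Traj25*. Past *Trac* the other libraries had peaks as well.

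The other receptor loci held fewer sites than *Tcra*/*Tcrd*. *Tcrb* held 4 peaks of this library, and the other lists held between 1 and 10. Of the 4 peaks, 2 were sites, one of them 0.93 kb upstream of *Trbc1* (fold enrichment 3.34). The promoter peak of the constant gene *Trbc2* was much stronger here (21.01) but was not a site. *GFI1-36N* vehicle had a promoter peak of 4.93 at *Trbc2*, and the remaining lists had none. *Tcrg* held 9 peaks and 3 sites, with a second strong site near *Stard3nl* (9.26), but *GFI1-36N* vehicle had 19 peaks in that locus and the remaining lists between 0 and 5. The immunoglobulin heavy chain locus *Igh* held 1 peak and no site, against 2 to 12 peaks in other lists. The light chain loci *Igk* and *Igl* held no peak of this library.

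**Figure D3:**
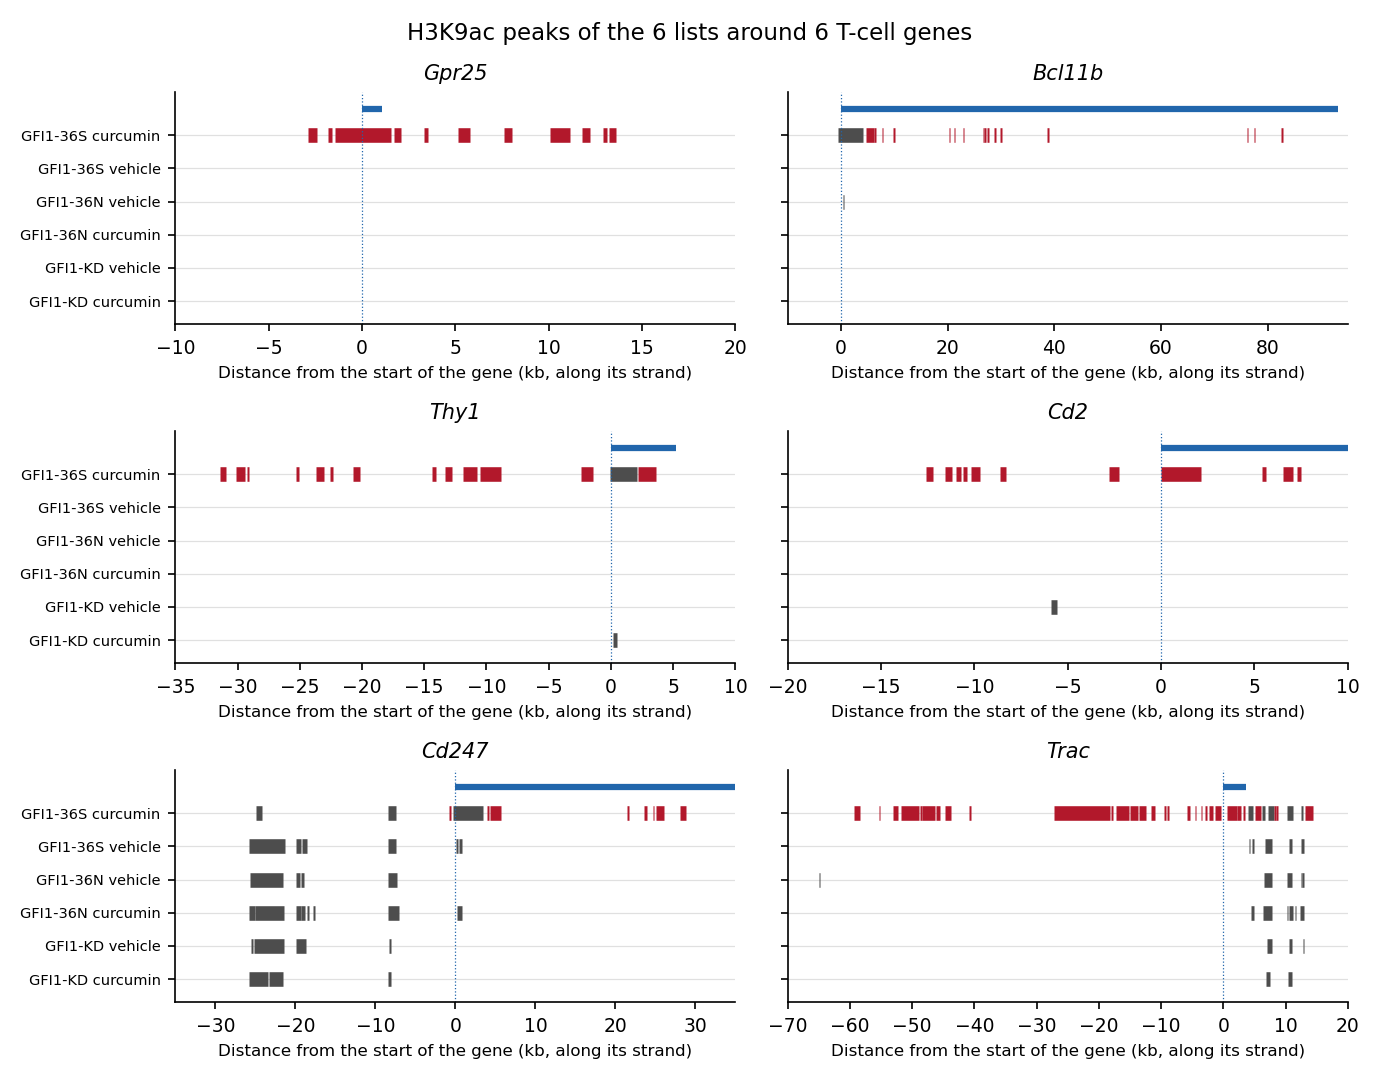
Peaks of the 6 lists around *Gpr25*, *Bcl11b*, *Thy1*, *Cd2*, *Cd247* and *Trac*, against the distance from the start of the gene along its strand in kb; blue bars are the genes, red bars sites found only in the library labelled *GFI1-36S* curcumin, and dark bars all other peaks. In the windows drawn, this library had 11 peaks at *Gpr25* and 35 at *Trac*, where the other lists had 0 and 2 to 6.

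Among the 10 genes given the most sites, 4 were in the T-lineage lists and the others were not in these lists. *Bcl11b*, the factor that commits cells to the T lineage, had 16 sites, all in its introns, with summits from 5.35 to 82.7 kb downstream of the start of the gene, the strongest with 34 fragments (fold enrichment 6.23). The list had 17 peaks nearest to *Bcl11b* in all. There was 1 such peak in *GFI1-36N* vehicle and none in the other 4 lists. Its promoter peak, at a fold enrichment of 19.4, was no member since *GFI1-36N* vehicle had a peak of 3.88 there. *Ets1*, a transcription factor of lymphocytes, had 18 sites, 15 of them in introns, with 26 peaks in this list and 4 to 9 in each other list. Fold enrichment at its promoter, which was acetylated in all libraries, was 15.4 here and 9.12 to 18.9 elsewhere. These values are not scaled between libraries. Ranked among the promoter peaks of its own list, it stood at percentile 67.0 here and 16.8 to 41.1 elsewhere.

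*Cd247*, the zeta chain of the T-cell receptor complex, had 15 sites and 19 peaks, against 2 to 4 peaks in each other list. *Thy1*, a surface protein of T cells, had 13 sites, 12 of them between genes on its upstream side, as far as 31.2 kb from its start. Peaks nearest to *Thy1* numbered 14 here, 1 in *GFI1-KD* curcumin and 0 in the other 4 lists. The other genes were *Trio* (a guanine nucleotide exchange factor, 22 sites), *Nck2* (an adaptor that also acts in T-cell receptor signalling, 22), *Ptpn14* (15), *Sh3rf1* (a ubiquitin ligase scaffold, 15), *Jazf1* (13) and *Celsr1* (a cadherin, 13). *Trio* and *Celsr1* are on chromosome 15, which held more sites than any other chromosome.

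Of the 44 measured genes of the T-cell receptor complex and its signalling, 25 (56.8%) had a site, against 5.99% of all genes tested. The sites found only in other lists fell on 11.4% of these genes for *GFI1-36S* vehicle (against 11.3% of all genes). It was 29.5% and 34.1% for *GFI1-36N* vehicle and curcumin (against 11.3% and 22.6%), and 25% and 9.09% for *GFI1-KD* vehicle and curcumin (against 15.0% and 3.24%). The CD3 chains were all in this group. At *Cd3e* and *Cd3g* the promoter peaks (fold enrichment 9.26 with 51 fragments, and 7.84 with 43) had no counterpart in any other list. *Cd3d* had a site inside the gene (5.34), 3.80 kb downstream of its start and at an internal TSS, beside a promoter peak present in all 6 lists. The coreceptor *Cd4* had 3 sites, the strongest at its promoter (8.55, 68 fragments), and *Cd8b1* had 1 (5.88, 32 fragments). *Cd8a*, which pairs with *Cd8b1*, had no peak in any list. *Cd2*, an adhesion receptor of T cells, had 11 sites with summits from 12.4 kb upstream to 7.36 kb downstream of the start of the gene, and the only other peak was 1 in *GFI1-KD* vehicle.

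Among the kinases and adaptors below the receptor, *Grap2* had 8 sites, *Fyn* 6, *Prkcq* 6, *Zap70* 4 and *Lat* 3. *Zap70*, the kinase that binds the phosphorylated zeta chain, had a promoter peak of 18.2 here, 5.34 in *GFI1-36N* vehicle and 3.37 in *GFI1-KD* vehicle, and none in the other 3 lists. *Cd28*, the costimulatory receptor, had 6 sites, none at its promoter, where 5 of the 6 lists had a peak. *Sla* had 2 sites, and *Lck*, *Nfatc1*, *Nfatc2*, *Sit1*, *Skap1*, *Themis*, *Txk* and *Trbc1* had 1 each. *Trac* had 8. Genes of the same list with no site included *Cd5*, *Lcp2* and *Icos*.

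Of the 29 T-lineage transcription factors measured, 17 (58.6%) had a site, against 5.99% of all genes. The sites found only in *GFI1-36S* vehicle fell on 37.9% of these factors, against 11.3% of all genes. It was 41.4% and 44.8% for *GFI1-36N* vehicle and curcumin (against 11.3% and 22.6%), and 27.6% and 10.3% for *GFI1-KD* vehicle and curcumin (against 15.0% and 3.24%). Besides *Bcl11b* and *Ets1*, *Tcf7* had 10 sites from 28.2 kb upstream to 16.8 kb downstream of its start, with 13 peaks here and 1 to 5 in each other list. Its promoter peak reached 21.5 here and 3.85 to 4.72 in the others. *Ikzf3*, an Ikaros-family factor of lymphocytes, had 8 sites and a promoter peak of 18.0, against 3.66 to 10.9 elsewhere. *Ikzf1*, *Tox*, *Id3* and *Foxp1* had 4 sites each, and *Tox2* had 3, with a promoter peak of 9.08 in this list only. *Gata3*, *Lef1* and *Tcf12* had 2 each, and *Zbtb7b*, *Foxo1*, *Zeb1* and *Myb* had 1. A site did not always go with more peaks. *Foxp1* had 20 peaks here and 32 to 53 in each other list, *Tcf12* 4 against 5 to 15, and *Myb* 6 against 8 to 19. At *Gata3*, needed for T-cell commitment, the promoter peak was 17.6 here and 4.12 to 5.03 in the other lists. Fold enrichment is not scaled between libraries, so these values show order within a list better than size between lists.

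Among 30 early thymocyte and Notch genes, 9 (30%) had a site, against the same 5.99% of all genes. Some other libraries had shares as high or higher from their own sites, which also fell on higher shares of all genes. It was 56.7% for *GFI1-36N* curcumin (against 22.6% of all genes), and 30% for *GFI1-36N* vehicle (against 11.3%) and *GFI1-KD* vehicle (against 15.0%). The share was 16.7% for *GFI1-36S* vehicle (against 11.3%) and 3.33% for *GFI1-KD* curcumin (against 3.24%). *Gpr25* had 10, but it was put in this list with earlier results of these data known, so its place at the top is no independent result. *Tcf7* (also counted above) had 10, *Rhoh* and *Aqp11* 7, *Cxcr4* 6, *Arpp21* 5, *Dntt* 3, and *Ccr9* and *Il2rb* 1. *Dntt*, the terminal transferase that adds bases at V(D)J joints, had a promoter peak of 6.23 in this list only. *Arpp21*, a thymocyte gene, had 5 sites with a fold enrichment of up to 6.95. *Notch1*, *Notch2* and *Notch3*, *Rag1*, *Rag2*, *Ptcra*, *Il7r* and *Il2ra* had no site. *Rag1*, a subunit of the V(D)J recombinase, had no peak in any list, and *Notch1* had 3 peaks here and 11 to 16 in each other list.

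Over the 3 lists together, 49 of 101 measured genes (48.5%) had a site, and they held 225 sites, 39 of them at promoters. Their median fold enrichment was 3.82, and that of the 2287 sites of all other genes was 3.74. A fold enrichment of at least 5 was reached by 17.3% of the former and 11.8% of the latter. Of the 49 genes with a site, 28 had more peaks here than in each other list, and of the 27 with 3 sites or more, 19 did. These genes were chosen for having sites of this list, which favours such an excess, so the counts are a description only. At 12 genes a promoter peak was present in this list only, namely *Cd2*, *Cd3e*, *Cd3g*, *Cd4*, *Cd8b1*, *Dntt*, *Gpr25*, *Skap1*, *Tox2*, *Trac*, *Trbc1* and *Txk*. All 12 had a site, which the rule makes nearly certain, since a peak with no overlap in another list is itself a site. Among genes given a site it was thus 12 of 49, against 124 of all 1274. *Gpr25* was put in its list with earlier results of these data known. At 8 T-lineage genes a promoter peak was absent here but present elsewhere, and at 47 it was present in all 6 lists. The pattern was not uniform, since 19 of the 52 genes without a site had fewer peaks here than in each other list, among them *Bach2* (0 against 18 to 28), *Runx1* (9 against 16 to 38) and *Cd44* (2 against 12 to 20). This list was also the shortest, and no share of all genes tested stands beside the 12, 8 and 47 of 101 or the 19 of 52.

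The sites found only in other lists also fell on T-lineage genes, and each count is read against the share of all genes given such a site. It was 19 genes for *GFI1-36S* vehicle (18.8%, against 11.3% of all genes), 34 for *GFI1-36N* vehicle (33.7%, against 11.3%) and 44 for *GFI1-36N* curcumin (43.6%, against 22.6%). For *GFI1-KD* vehicle it was 27 (26.7%, against 15.0%) and for *GFI1-KD* curcumin 8 (7.92%, against 3.24%). With the 19931 top peaks of each list, it was 58 of 101 genes (57.4%, against 8.44% of all genes) for the library labelled *GFI1-36S* curcumin and 6 to 17 (5.94% to 16.8%, against 3.41% to 6.66%) for the others. This cut kept the whole list of the former and only the top of the others, which favours sites of the former.

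**Figure D4:**
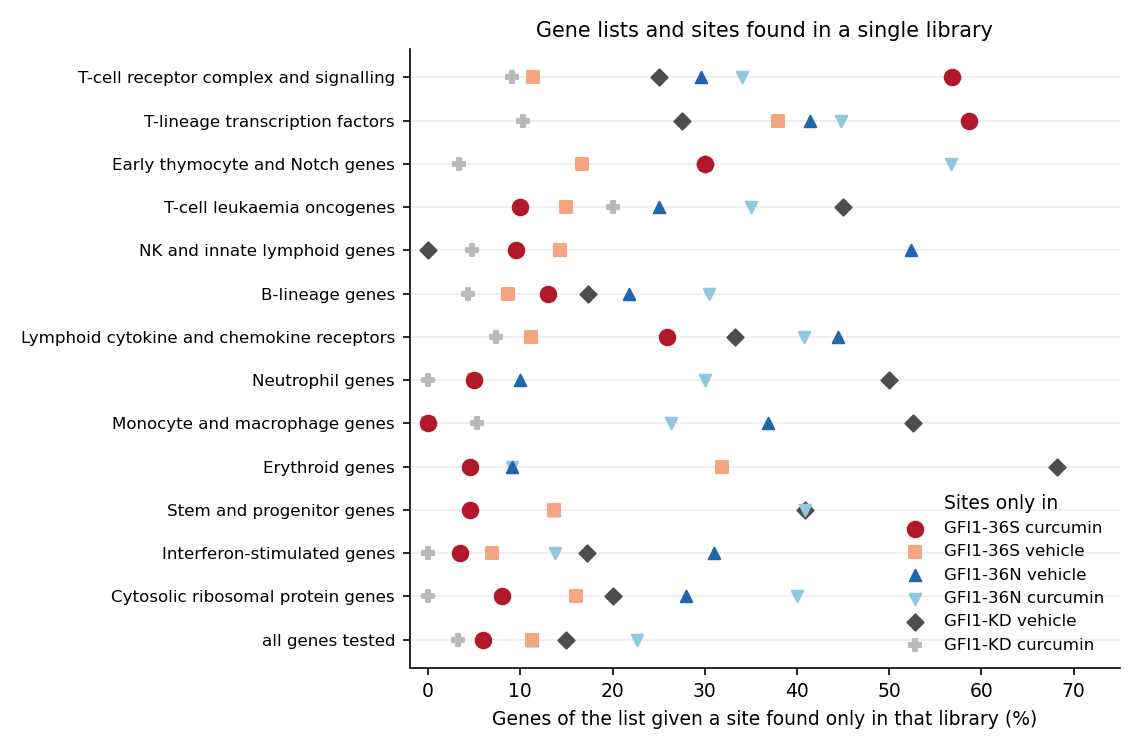
Percent of the genes of each of 13 lists, and of all 21270 genes tested, given a site found only in one library; each symbol is a library. The library labelled *GFI1-36S* curcumin stands at 56.8% for receptor signalling and 58.6% for T-lineage factors, against 5.99% of all genes, and at 0 to 10% for the myeloid, erythroid, progenitor, interferon and ribosomal lists and the leukaemia oncogenes; at early thymocyte genes its 30% hides the symbols of *GFI1-36N* vehicle and *GFI1-KD* vehicle.

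The other gene lists are read against the same 5.99% of all genes. Of 21 natural killer genes measured, 2 (9.52%) had a site, *Eomes* and the granzyme gene *Gzma*, and of 23 B-lineage genes 3 (13.0%), *Blk*, *Cd74* and *Pou2af1*. Lymphoid cytokine and chemokine receptors had a site at 7 of 27 genes (25.9%), among them the chemokine receptors *Ccr4* with 4 and *Cxcr4* with 6. Of 20 neutrophil genes 1 had a site (5%), *Gfi1* itself, and of 19 monocyte and macrophage genes none. Erythroid genes had 1 of 22 (4.55%, *Sptb*), stem and progenitor genes 1 of 22 (4.55%, *Fli1*), interferon-stimulated genes 1 of 29 (3.45%, *Usp18*) and cytosolic ribosomal protein genes 2 of 25 (8%, *Rpl11* and *Rpl27*). Of 20 T-cell leukaemia oncogenes, *Bcl11b* and *Ccnd3* (10%) had sites, and *Tal1*, *Tlx1*, *Tlx3*, *Lmo1* and *Lmo2* did not.

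The label of whole BM was checked against the promoters of marker genes. No share of all genes with a promoter peak stands beside the counts that follow, and this list was the shortest. In this list 8 of 9 T-cell markers had a promoter peak (*Cd8a* had none), against 2 to 4 in the other lists. *Cd3d* and *Lck* had a promoter peak in all 6 lists, with a fold enrichment of 9.04 and 8.73 here, against 9.42 to 15.6 and 10.8 to 12.3 elsewhere. None of 7 neutrophil markers had one here (*Elane*, *Mpo*, *Ltf*, *Ngp*, *Camp*, *S100a8* and *Cebpe*), against 7 in 4 of the other lists and 4 in *GFI1-KD* curcumin. For B-cell markers it was 0 of 5, against 1 to 3 in the other lists, and for natural killer markers 0 of 4, against 1 to 2. Of 5 erythroid markers 1 had one (*Klf1*), against 2 to 5 elsewhere, and of 5 progenitor markers 1 (*Flt3*), against 4 to 5. The 7 neutrophil markers were thus without a promoter peak in the library that held the sites. In bulk cells, more cells of a type and more of the mark per cell cannot be told apart, and the part that the makeup of the sample played in the sites was not tested. Outside the autosomes, the list had 3 peaks on chromosome Y, all without a counterpart, and the other 5 lists had 0.

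The sites were unevenly spread over chromosomes. Chromosome 15 held 370 of them (13.7%) and 28.4% of its peaks were sites. The sites of other lists were in excess there too for *GFI1-36N* curcumin (34.3% of its peaks on chromosome 15, against 19.9% overall) and *GFI1-36N* vehicle (14.3%, against 9.35%), but made up 2.36%, 5.61% and 0.897% of the chromosome 15 peaks of *GFI1-36S* vehicle and *GFI1-KD* vehicle and curcumin. In the library labelled *GFI1-36S* curcumin, the share on chromosomes 14 and 1 was 21.7% (188 sites) and 21.5% (279), and on the other 16 chromosomes it lay between 7.35% and 15.6%. Of the 188 sites on chromosome 14, 42 lay in the *Tcra*/*Tcrd* locus. Chromosomes 14 and 15 also stood apart in peaks that all libraries share. At 462 promoter peaks of chromosome 15 present in all 6 lists, the median ratio of fold enrichment in this library to that in *GFI1-36S* vehicle was 0.910, against 0.537 on the chromosomes other than 14 and 15, and it was 0.730 at 380 such peaks of chromosome 14. Relative to those other chromosomes, chromosome 15 was 1.69 times higher against *GFI1-36S* vehicle, 1.72 and 1.74 times against *GFI1-KD* vehicle and curcumin, and 1.17 and 1.11 times against *GFI1-36N* vehicle and curcumin. Chromosome 14 was 1.36 times higher against *GFI1-36S* vehicle, 1.32 times against both *GFI1-KD* libraries, and 1.20 and 1.17 times against *GFI1-36N* vehicle and curcumin. The part of this shift in the number of sites on chromosomes 14 and 15 was not tested. Without chromosome 15 there were 2339 sites (12.6% of the peaks) and 46 T-lineage genes with a site, and without both chromosomes 2151 (12.1%) and 45.

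**Figure D5:**
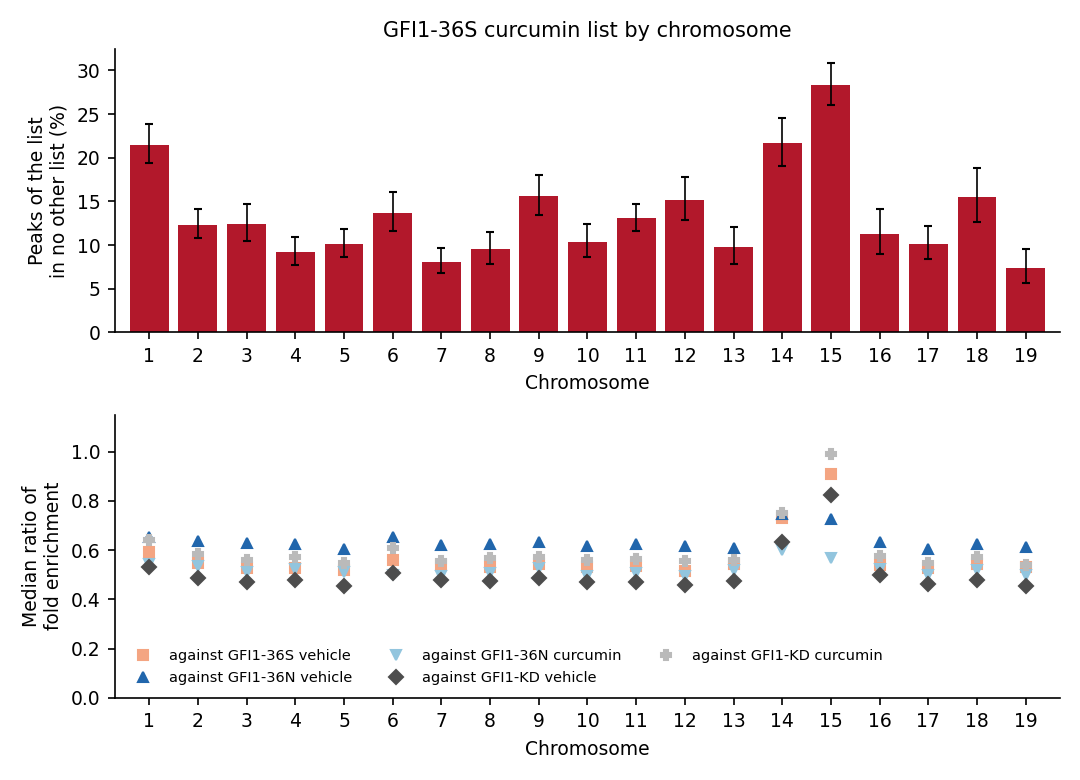
Upper panel, percent of the peaks of each chromosome that were found in no other list, for the library labelled *GFI1-36S* curcumin, with Wilson 95% intervals; lower panel, median ratio of its fold enrichment to that of each other library at promoter peaks present in all 6 lists. Chromosome 15 stands highest in the upper panel (28.4%) and, in the lower, against *GFI1-36S* vehicle (0.910) and both *GFI1-KD* libraries; against the *GFI1-36N* libraries chromosome 14 is highest (0.745 and 0.6004).

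The DNA under the sites was described in windows around the summit. In 300 bp around the summit, the 2319 sites away from promoters had a median GC content of 50%, against 51.0% for shared peaks of the same list away from promoters and 45.7% to 47.7% for the sites found only in other lists. Their median ratio of observed to expected CpG was 0.238. The 390 sites at promoters had a ratio over 0.6, as in a CpG island, in 18.5% of windows, against 70.8% for shared peaks at promoters. An E-box (CAGCTG, its own reverse complement) was found in 22.8% of the 2319 windows, against 20.5% of shared peaks away from promoters, 16.6% to 18.9% of sites found only in other lists, and 19.1% of all 130847 peaks away from promoters. TCF/LEF letters (CTTTGAT) were in 5.05%, against 3.49%, 3.6% to 4.64%, and 3.99% in the same order.

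RUNX letters (TGTGGT) were in 21.9% of these windows and in 23.6% of all peaks away from promoters, and ETS letters (AGGAAGT) in 8.37% and 12.4%. The ETS share was also below that of shared peaks of the same list away from promoters (12.6%) and of the sites found only in other lists (10.9% to 15.0%). GATA letters (AGATAAG) were in 3.41% and 4.06%, and C/EBP letters (TTGCNNAA) in 11.6% and 12.4%. For GFI1 (AATCNNNGC) the shares were 10.05% and 10.8%, for AP-1 (TGANTCA) 7.68% and 9.36%, for IRF 5.09% and 6.52%, for RBPJ (GTGGGAA) 6.73% and 7.02%, and for MYB (AACTGNC) 16.6% and 16.4%. Both strands were searched and matches of different patterns may overlap. These are letters in a window and not bound sites.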

How the data were processed

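H3K9ac ChIP-seq was done on frozen BM cells with the antibody ab4441. The authors trimmed reads with Trim Galore, mapped them to mm10 with BWA-MEM, called peaks per library with MACS2 and removed ENCODE black list regions. SAMtools, Picard and deepTools are named in the submitters' processing notes, without versions. The control of each list, the threshold and the handling of duplicates are not given in the sources used here. The deposited columns are the fold enrichment (a ratio) at the summit, the −log10 p and −log10 q, and an integer score. They are not normalized between libraries. The score was not used.

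Overlap meant at least 1 bp. Genes were protein-coding and antigen receptor genes of GENCODE release M21, and a promoter reached 1 kb upstream and downstream of each TSS. Sites not at a promoter were placed by their summit, and each was given to the nearest TSS within 100 kb. Fragments at the summit were recovered from fold enrichment and p within 0.002, for all 19931 peaks. Python 3.11.15, numpy 2.4.6, scipy 1.17.1, pandas 2.3.3 and matplotlib 3.10.9 were used. On simulated data, 200 of 200 sites placed without overlap with other lists' peaks were found, and 0 of 200 that overlapped by 1 bp. The sites, gene lists and alternatives were chosen with earlier results of these data known, *Gpr25* in its list included. Named genes were those of the 20 strongest sites, the 10 genes with the most sites, the 20 strongest at promoters, and members of the lists; *Olfr524*, *Elfn2*, *Syt13* and genes named without a site were chosen after their values were seen. Some genes that qualify are not reported. The alternatives are given with their values at the end. With 1 library per group no test was made.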

Additional observations from a re-analysis of the deposited data

Results flagged for a closer look

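A signal lay outside the autosomes that the sites were drawn from. On chromosome Y, 3 peaks were listed for *GFI1-36S* curcumin, and each of the other 5 lists had 0. On chromosome X there were 420 peaks, of which 8 were in no other list. The other lists had 695 to 821 peaks there, and 33 to 88 of these were found in 1 list only.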

How the results depend on the processing

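With a −log10 q of at least 5 there were 1420 sites, 8.77% of the 16189 peaks that met it, with a median fold enrichment of 4.27 and 16.9% at promoters. With equally many top peaks from each list it was 4064 sites, 20.4% of the list, with 15.9% at promoters. This cut took peaks only from the other lists, which favours more sites here. Sites at least 1 kb from every other peak made up 10.3%. When sharing needed 50% of a peak to be covered, the share was 15.9%, with 16.8% at promoters, and against the *GFI1-36S* vehicle list alone it was 19.9%, with 17.2% at promoters. With the treatments of the *GFI1-36S* lists exchanged, as their names have them, the sites of the other list are described: 9.05% of its peaks, a median fold enrichment of 3.38, 11.6% at promoters and 19 T-lineage genes. Without chromosome 15 the share was 12.6%, and without chromosomes 14 and 15 it was 12.1%, 2 alternatives chosen after seeing the data. A promoter window of 3 kb raised the promoter share to 27.6%, and requiring the summit in the window lowered it to 13.0%. Apart from the exchange, T-lineage genes with a site numbered 39 to 58. The causes of these shifts were not tested.

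No paired analysis was possible because each genotype and treatment has 1 library. Depth limits weak sites: the median site rested on 22 fragments, and absence from another list says only that no peak passed its threshold there. Total reads per library are not in the lists. Peaks of the alpha and gamma receptor loci and other repeated segments are uncertain where near-identical copies share reads. The sites cannot be tied to curcumin, since 1 mouse or pool stands behind the library and the names of the lists contradict its label.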
